A study of Mus musculus with 4 samples.

Results

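The data are RNA-seq libraries of mouse T cells, described here for the aminoacyl-tRNA synthetases and the scaffold proteins that hold some of them together. The genes were taken by name from the deposited table, which holds 54532 genes, and all 38 were found. They are 20 cytosolic enzymes or enzyme subunits, 16 mitochondrial enzymes, whose names end in 2, and the scaffolds Aimp1 and Aimp2. The DMF group holds 2 libraries of wild-type spleen CD4+ T cells that started as naive cells and were kept under T follicular helper (Tfh) conditions with dimethyl fumarate for 3 days. The control group holds 2 libraries of the same kind of wild-type cells under the same conditions for 3 days with no DMF. Dimethyl fumarate is a fumaric acid ester known as an activator of the transcription factor Nrf2, and the series title ties it to Tfh differentiation in chronic graft-versus-host disease. The sources used here do not give the DMF dose, the mouse strain or the age. Whether the replicates are separate cultures or animals is not in the labels, so p-values measure only the spread between these libraries, which may be technical.

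An aminoacyl-tRNA synthetase joins an amino acid to its tRNA, which is the step that sets the genetic code. Most amino acids have a cytosolic enzyme and a separate mitochondrial enzyme, both encoded in the nucleus, while Gars and Kars each supply both compartments from a single gene. Activated T cells make protein at a high rate, and a shortage of charged tRNA is sensed by the kinase GCN2, which through the transcription factor ATF4 switches on many cytosolic synthetase genes. ATF4 acts at the amino acid response element, a short DNA motif in the promoters of its targets.

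Levels are given as FPKM, which scales the fragments of a gene to its length and to a size set for the library. It allows levels of different genes to be compared. The deposited sizes were 1.07 times the recovered reads in each DMF library. They were 1.03 times in control replicate 1 and 0.876 times in control replicate 2. A lower factor raises all FPKM values of a library relative to scaling by its reads. Reads per gene, recovered from FPKM and gene length, came to 17134385 and 17516953 in the DMF libraries and 17171199 and 15900118 in the controls, and a single member had between 124 and 5808 reads in a library. The libraries were not equally alike: control replicate 2 deviated from the rest by an amount that depended on gene length. Gene length here is the table's, which counts exon bases. The median log2 distance of that library from the other 3 was -0.04 in the shortest genes (11 to 579 bases), 0.75 in genes of 579 to 1444 bases, and lower in each longer group down to -0.63 at 8933 to 40491 bases. Its composition differed too. Ribosomal protein genes took 13.8% of its reads, against 6.91% in control replicate 1 and 6.29% in each DMF library. The 12 T cell markers each averaged 49.7 FPKM or more. They summed to 2781 and 2716 FPKM in the DMF libraries, against 2902 and 5148 FPKM in the controls, and 7 of them were lower in both DMF libraries. Markers of other cells also moved with the groups, and their part in the results below was not tested. The 10 B cell markers summed to 28.5 and 27.9 FPKM in the DMF libraries, against 12.2 and 15.4 FPKM in the controls, and 9 of them were higher in both DMF libraries than in either control. The 8 CD8 T and NK cell markers summed to 3.46 and 3.17 FPKM in the DMF libraries, against 14.5 and 23.1 FPKM in the controls, with 6 lower in both DMF libraries and Klrb1c and Ncr1 at 0 in all 4. The 10 myeloid markers summed to 8.40 and 7.05 FPKM in the DMF libraries, against 9.01 and 12.5 FPKM in the controls, with 6 lower in both DMF libraries, 1 higher and Elane at 0 in all 4. Over all tested genes, both DMF libraries lay above both controls in 26.4% and below both in 26.8%. Only 7 of the B cell, 3 of the CD8 T and NK and 3 of the myeloid markers averaged 1 FPKM or more. The myeloid gene Mpo, for example, had 0 reads in both DMF libraries, and 2 and 1 in the controls. At such levels a position rests on few reads. In bulk samples such as these, fewer cells of a type and less RNA per cell cannot be told apart.

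The promoters of the cytosolic enzymes were read first, because the amino acid response element links this gene family to ATF4. RefSeq promoters of build GRCm38.p6 (250 bases before and 50 bases from the start of transcription on) were found for 29 of the 38 genes and not for Cars, Hars, Lars, Nars, Rars, Vars, Wars, Hars2 and Pars2. The letters TGATGNAAN, where N is any base, were searched on both strands. They were found in 5 of 13 cytosolic and 0 of 14 mitochondrial promoters, against 4.50% of all 27025 genes with a promoter entry. The 5 genes were Aars, Gars, Iars, Tars and Yars. Aars holds a further match, at bases -113 to -105, which is not printed below. Matches that are shown lie at chr8:111033850-111033858 in Aars, chr6:55037970-55037978 in Gars, chr13:49682136-49682144 in Iars, chr15:11399666-11399674 in Tars and chr4:129189906-129189914 in Yars. Each sequence is printed in the direction of its gene (plus strand, but minus for Tars), with the 9 matching bases in capitals. The motif itself reads on the opposite strand in all but Yars.
Aars, bases 9 to 17 from the start: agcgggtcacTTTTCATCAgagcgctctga
Gars, bases -31 to -23: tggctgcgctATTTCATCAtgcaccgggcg
Iars, bases 7 to 15: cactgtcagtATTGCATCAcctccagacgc
Tars, bases -16 to -8: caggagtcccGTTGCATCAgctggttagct
Yars, bases 4 to 12: cgagctcagcTGATGCAACccgacgggact

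Base 1 is the start of transcription and base -1 the one before it. The E-box CACGTG, the motif that Myc binds, was found in 5 of the 29 promoters (those of Aars, Iars, Tars, Farsb and Ears2), against 8.09% of all genes, and overlapped no response element match. Such a match describes the sequence and does not show binding.

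The 38 genes were all expressed. Cytosolic enzymes had mean levels over the 4 libraries of 11.4 to 72.4 FPKM, with a median of 32.6 FPKM, and mitochondrial enzymes had 1.79 to 19.6 FPKM, with a median of 5.81 FPKM. Gars, the glycine enzyme, was the most abundant, at 76.1 and 74.2 FPKM in the DMF libraries, against 65.98 and 73.3 FPKM in the controls. Nars, which charges asparagine, was next, at 71.3 and 73.4 FPKM in the DMF libraries, against 56.8 and 67.8 FPKM in the controls. Both were slightly higher in both DMF libraries than in either control. The lowest of the 38 was Nars2, the mitochondrial asparagine enzyme, at 2.26 and 1.86 FPKM in the DMF libraries, against 1.37 and 1.67 FPKM in the controls. Among the mitochondrial enzymes Lars2, for leucine, was at the top, with 13.99 and 21.7 FPKM in the DMF libraries, against 19.7 and 22.8 FPKM in the controls. Its DMF libraries differed by 0.60 on the log2 scale, the widest gap between DMF libraries of any member, against a median gap of 0.04 over the 38.

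**Figure D1:**
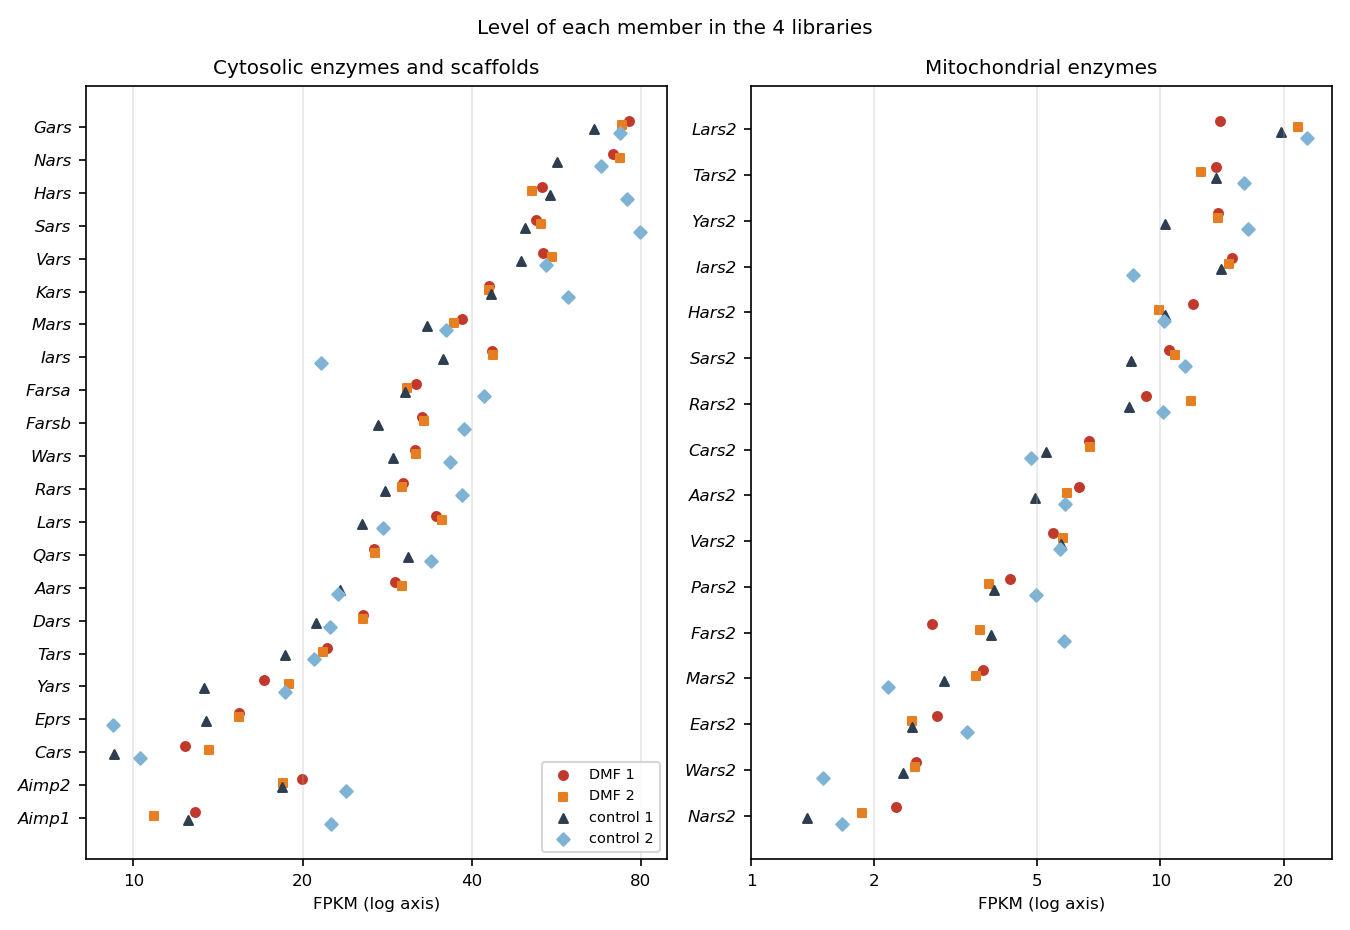
FPKM of each gene in DMF replicates 1 and 2 and control replicates 1 and 2, on a log axis, with cytosolic enzymes and scaffolds on the left and mitochondrial enzymes on the right, each sorted by mean level. The DMF points of most genes lie close together, while control replicate 2 lies far from control replicate 1 in Iars, Sars, Iars2 and Aimp1.

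The mean difference was positive, that is higher with DMF, for 13 of 20 cytosolic enzymes, 10 of 16 mitochondrial enzymes and neither scaffold. It was positive for 48.9% of all tested genes. No gene of the family passed the test. Differences are DMF minus control on the scale of log2(FPKM + 1), which understates changes of low genes, and run over the 38 genes from -0.47 (Aimp1) to 0.63 (Iars). limma called 0 of the 38 at an adjusted p under 0.05, where it called 0.0% of the 12166 genes tested, that is 0 genes. At an unadjusted p under 0.05 it took 0 of the 38, against 9.45% of all tested genes. The smallest adjusted p in the family was 0.555, for Cars. The gap between the controls was wider than that between the DMF libraries in 32 of the 38 genes, and wider than the difference between the groups in 26.

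Of the 20 cytosolic enzymes, 10 were higher in both DMF libraries than in either control, and 3 were lower. The same positions were held by 26.4% and 26.8% of all tested genes. The median difference of the 20 was 0.12, against -0.01 over all tested genes, and it was positive in all 14 alternative settings, from 0.02 without control replicate 1 to 0.30 under quantile normalization. It cannot change with no filter, a mean FPKM minimum of 5, eBayes without a trend or the replicate block, where it stayed 0.12. The counts moved with the controls. Both DMF libraries lay above control replicate 1 in 17 of the 20 enzymes and below it in 3, where all tested genes gave 43.4% and 39.6%. They lay above control replicate 2 in 10 and below it in 8, where all tested genes gave 43.6% and 49.0%. With the gene length trend removed from each library, 7 of the 20 lay above both controls, 6 of them among the 10, and 2 lay below, against 27.2% and 27.1% of all tested genes. Under quantile normalization 16 lay above and 1 below, against 29.7% and 24.1%.

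**Figure D2:**
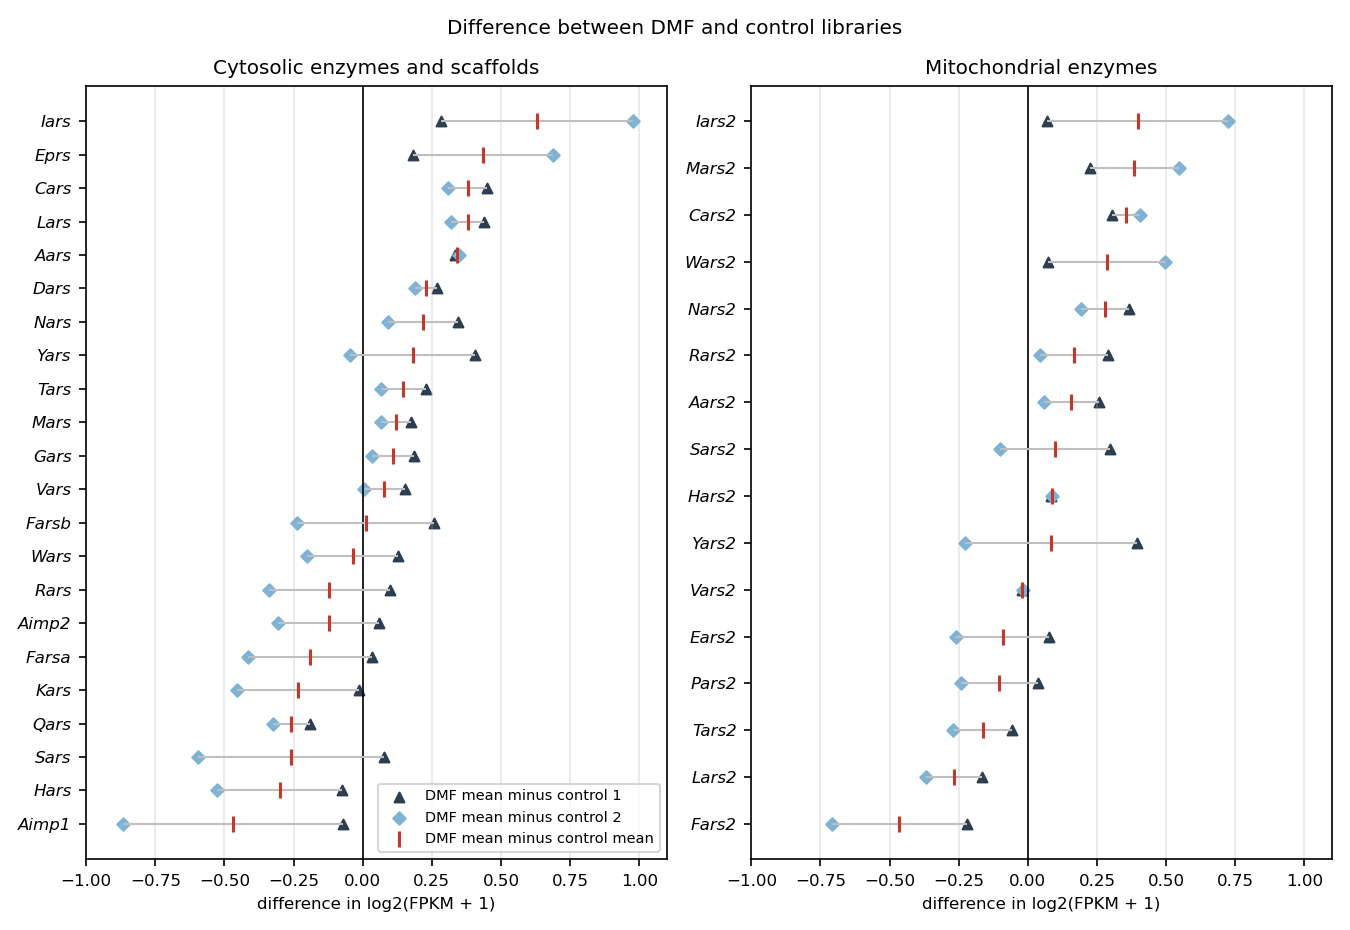
Difference in log2(FPKM + 1) between the DMF mean and control replicate 1 (triangles), control replicate 2 (diamonds) and the control mean (red bars), sorted by the last. Iars spans 0.28 to 0.98 and Sars -0.59 to 0.08 depending on the control, while Aars holds 0.33 and 0.35.

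Among the enzymes of the multisynthetase complex, a cytosolic assembly of 8 synthetase genes and scaffolds, 5 of the 8 (Iars, Eprs, Lars, Dars and Mars) were higher in both DMF libraries and 2 (Qars and Kars) were lower. Over all tested genes these shares were 26.4% and 26.8%, which are also those to set beside the counts by role below. Iars (GRCm38 chromosome 13, 49682100 to 49734267), which charges isoleucine, was at 43.4 and 43.6 FPKM in the DMF libraries, against 35.6 and 21.6 FPKM in the controls. The DMF libraries were alike and above both controls, but the controls were 0.69 apart on the log2 scale, the lower one being replicate 2. Its difference was 0.63 ± 0.29 (SE, n = 2 per group, limma adjusted p = 0.556), and 0.57 with the length trend removed. Lars, the leucine enzyme, was at 34.5 and 35.4 FPKM in the DMF libraries, against 25.5 and 27.8 FPKM in the controls. The groups were well apart and the controls close, with a difference of 0.38 ± 0.18 (limma adjusted p = 0.557).

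Eprs (GRCm38 chromosome 1, 185363044 to 185428360), a single protein that charges both glutamate and proline, was at 15.4 and 15.4 FPKM in the DMF libraries, against 13.5 and 9.18 FPKM in the controls. It has the most exon bases of the family, 18102, and its difference of 0.44 ± 0.24 (limma adjusted p = 0.561) was -0.01 with the length trend removed. Dars, for aspartate, was at 25.6 and 25.6 FPKM in the DMF libraries, against 21.1 and 22.3 FPKM in the controls. Mars, for methionine, was at 38.4 and 37.2 FPKM in the DMF libraries, against 33.3 and 36.01 FPKM in the controls, a narrow gap. Qars, the glutamine enzyme, ran the other way, at 26.8 and 26.9 FPKM in the DMF libraries, against 30.8 and 33.9 FPKM in the controls, with a difference of -0.26 ± 0.18 (limma adjusted p = 0.567), -0.41 with the length trend removed, and no overlap. Kars, for lysine, was at 42.9 and 42.9 FPKM in the DMF libraries, against 43.3 and 59.2 FPKM in the controls. It lay below control replicate 1 by only 0.01 on the log2 scale. Rars, the arginine enzyme and the last of the 8, overlapped, at 30.2 and 30.1 FPKM in the DMF libraries, against 28.1 and 38.4 FPKM in the controls.

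For the scaffolds of the complex the groups overlapped. Aimp1 (GRCm38 chromosome 3, 132660499 to 132684370), which also gives rise to a secreted cytokine, was at 12.9 and 10.9 FPKM in the DMF libraries, against 12.5 and 22.5 FPKM in the controls. Control replicate 2 was the outlying value, and the difference of -0.47 ± 0.32 (limma adjusted p = 0.567) was -0.07 against control replicate 1 alone. Aimp2 was at 19.95 and 18.4 FPKM in the DMF libraries, against 18.4 and 23.9 FPKM in the controls, and its difference of -0.12 was 0.22 with the length trend removed. Of its exon bases, 29.4% are shared with Eif2ak1 on the opposite strand. Eef1e1, the third scaffold of the complex, which is no member and was chosen after its values were seen, overlapped as well, at 18.1 and 17.2 FPKM in the DMF libraries, against 16.2 and 26.1 FPKM in the controls.

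Of the 12 cytosolic synthetase genes outside the complex, 5 (Cars, Aars, Nars, Tars and Gars) were higher in both DMF libraries and 1 (Hars) was lower. Cars (GRCm38 chromosome 7, 143557230 to 143600090), which charges cysteine, was at 12.3 and 13.6 FPKM in the DMF libraries, against 9.22 and 10.3 FPKM in the controls, a ratio of the means of 1.33. Its difference was 0.38 ± 0.17 (limma adjusted p = 0.555), and 0.23 with the length trend removed, where the groups overlapped. Aars (GRCm38 chromosome 8, 111033144 to 111057664), the alanine enzyme, was at 29.2 and 30.1 FPKM in the DMF libraries, against 23.3 and 23.1 FPKM in the controls. Both pairs of replicates were tight, and the difference of 0.34 ± 0.17 (limma adjusted p = 0.561) was 0.08 with the length trend removed, where the groups overlapped. Exosc6 shares exon bases with Aars on the same strand, and all shared bases make up 15.1% of its exons.

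Tars, for threonine, was at 22.1 and 21.8 FPKM in the DMF libraries, against 18.6 and 20.96 FPKM in the controls. Hars, for histidine, was lower, at 53.4 and 51.1 FPKM in the DMF libraries, against 55.1 and 75.7 FPKM in the controls, with a difference of -0.30 ± 0.24 that was -0.01 with the length trend removed. Sars, the serine enzyme, was at 52.1 and 53.1 FPKM in the DMF libraries, against 49.7 and 79.9 FPKM in the controls. It lay between the controls, slightly above replicate 1. Farsa and Farsb encode the alpha and beta subunits of the phenylalanine enzyme. Farsa was at 31.8 and 30.7 FPKM in the DMF libraries, against 30.5 and 42.03 FPKM in the controls, and Farsb at 32.6 and 32.95 FPKM in the DMF libraries, against 27.2 and 38.8 FPKM in the controls. In both, the DMF values lay between the 2 controls. Wars, the tryptophan enzyme and a gene known to be induced by interferon gamma, was at 31.7 and 31.9 FPKM in the DMF libraries, against 29.00 and 36.6 FPKM in the controls, also between the controls. Vars, for valine, was at 53.5 and 55.5 FPKM in the DMF libraries, against 48.9 and 54.3 FPKM in the controls, and Yars, for tyrosine, at 17.1 and 18.9 FPKM in the DMF libraries, against 13.3 and 18.6 FPKM in the controls. In each of these last 2 genes 1 DMF library lay between the controls.

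By enzyme class, 4 of 9 class I cytosolic genes lay above both controls and 1 below, and 5 of 10 class II genes lay above and 2 below, with Eprs holding domains of both classes. The medians were 0.12 and 0.06. Of the 5 cytosolic genes with a response element in the promoter, 4 (Aars, Gars, Iars and Tars) lay above both controls and Yars overlapped, where 26.4% of all tested genes lay above. Of the 8 with a promoter entry and no match, 3 (Dars, Eprs and Mars) lay above, 2 (Kars and Qars) below and 3 (Farsa, Farsb and Sars) overlapped. With the length trend removed, 2 of the 5 (Gars and Iars) and 3 of the 8 (Dars, Farsb and Mars) lay above, where 27.2% of all tested genes did.

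Of the 16 mitochondrial enzymes, 6 were higher in both DMF libraries than in either control and 1 was lower, against the same 26.4% and 26.8% of all tested genes. Their median difference was 0.09, and 0.01 without control replicate 1. Against control replicate 1 alone 10 lay above and 1 below, where all tested genes gave 43.4% and 39.6%. Against replicate 2 alone 6 lay above and 7 below, where all tested genes gave 43.6% and 49.0%. With the length trend removed 6 lay above, 3 of them among the first 6, and 3 below, against 27.2% and 27.1% of all tested genes.

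Cars2 (GRCm38 chromosome 8, 11513977 to 11550783), the mitochondrial cysteine enzyme, had the smallest p of the 16, at 6.697 and 6.73 FPKM in the DMF libraries, against 5.25 and 4.83 FPKM in the controls. The replicates of each group were close, and the difference was 0.35 ± 0.17 (limma adjusted p = 0.561), and 0.17 with the length trend removed. Naxd, on the opposite strand, shares 5.83% of its exon bases. Iars2, for isoleucine, was at 14.9 and 14.7 FPKM in the DMF libraries, against 14.1 and 8.57 FPKM in the controls, so that its gap to control replicate 1 was small and that to replicate 2 wide. Its exons share 24.2% of their bases with Rab3gap2 and 2010103J01Rik on the opposite strand. Mars2, for methionine, was at 3.69 and 3.54 FPKM in the DMF libraries, against 2.95 and 2.16 FPKM in the controls, and Wars2, for tryptophan, at 2.53 and 2.51 FPKM in the DMF libraries, against 2.34 and 1.497 FPKM in the controls. Both followed Iars2 in having control replicate 2 as the lowest library. With the length trend removed, the difference was 0.15 for Iars2 (0.40 before), 0.07 for Mars2 (0.38 before), where the groups overlapped, and 0.18 for Wars2 (0.28 before). Nars2 and Aars2, the alanine enzyme, were the others above both controls. Aars2 was at 6.32 and 5.901 FPKM in the DMF libraries, against 4.95 and 5.83 FPKM in the controls, a gap smaller than that between its controls.

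Fars2 (GRCm38 chromosome 13, 36117412 to 36726280), the mitochondrial phenylalanine enzyme, was the only one of the 16 below both controls, at 2.77 and 3.62 FPKM in the DMF libraries, against 3.86 and 5.82 FPKM in the controls. The spread was wide in both groups, and the difference was -0.47 ± 0.26 (limma adjusted p = 0.561). Lyrm4 and Nrn1, on the opposite strand, share 10.7% of its exon bases. Tars2, for threonine, was at 13.7 and 12.6 FPKM in the DMF libraries, against 13.7 and 16.03 FPKM in the controls, where DMF replicate 1 and control replicate 1 were equal to 3 digits. Vars2, for valine, was the flattest, at 5.46 and 5.78 FPKM in the DMF libraries, against 5.72 and 5.69 FPKM in the controls.

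The other 6 mitochondrial enzymes overlapped too. Yars2, for tyrosine, was at 13.8 and 13.8 FPKM in the DMF libraries, against 10.3 and 16.4 FPKM in the controls, and Sars2, for serine, at 10.5 and 10.8 FPKM in the DMF libraries, against 8.48 and 11.5 FPKM in the controls. Both lay between the controls, above replicate 1. Rars2, for arginine, was at 9.23 and 11.9 FPKM in the DMF libraries, against 8.39 and 10.1 FPKM in the controls, and Hars2, for histidine, at 12.02 and 9.93 FPKM in the DMF libraries, against 10.2 and 10.2 FPKM in the controls. In these 2 genes the DMF libraries were themselves far apart. Hars2 starts next to Hars on the other strand, and the pair shares 195 exon bases. Pars2, for proline, was at 4.29 and 3.81 FPKM in the DMF libraries, against 3.92 and 4.97 FPKM in the controls, and Ears2, for glutamate, at 2.84 and 2.47 FPKM in the DMF libraries, against 2.46 and 3.37 FPKM in the controls, with differences of -0.10 and -0.09 on the log2 scale.

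The cytosolic and mitochondrial enzymes had similar median differences between DMF and control. The cytosolic median was higher by 0.02, a value that was 0.19 under quantile normalization, 0.10 without control replicate 2 and -0.04 with the length trend removed. Per library, the mean log2(FPKM + 1) of the cytosolic enzymes exceeded that of the mitochondrial ones by 2.18 and 2.18 in the DMF libraries and by 2.12 and 2.20 in the controls. The DMF values lay between those of the controls. In summed FPKM, the cytosolic enzymes came to 741 and 744 in the DMF libraries and 659 and 789.8 in the controls. The mitochondrial ones came to 125 and 132 in the DMF libraries and 118 and 131 in the controls.

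For 13 amino acids a cytosolic and a mitochondrial gene can be paired with no gene shared between pairs, and the cytosolic one was higher per length in all 4 libraries in each pair. The ratio ran from 1.14 for Yars over Yars2 to 41.5 for Nars over Nars2. It was higher in both DMF libraries than in either control for 4 pairs and lower for 5. Shares for ratios of other gene pairs were not worked out, so these counts have no background. Vars over Vars2 was higher by a narrow gap, at 9.79 and 9.60 in the DMF libraries, against 8.55 and 9.53 in the controls. Lars over Lars2 was at 2.47 and 1.63 in the DMF libraries, against 1.29 and 1.22 in the controls. Iars over Iars2 was at 2.91 and 2.97 in the DMF libraries, against 2.53 and 2.52 in the controls, although both genes were low in control replicate 2. Tars over Tars2 was at 1.62 and 1.73 in the DMF libraries, against 1.36 and 1.31 in the controls. The ratio was lower for Sars over Sars2, at 4.97 and 4.90 in the DMF libraries, against 5.87 and 6.94 in the controls. It was lower too for Hars over Hars2, at 4.45 and 5.15 in the DMF libraries, against 5.38 and 7.41 in the controls. The other lower ratios were those of Mars over Mars2, Nars over Nars2 and Rars over Rars2. None of the ratios was tested.

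**Figure D3:**
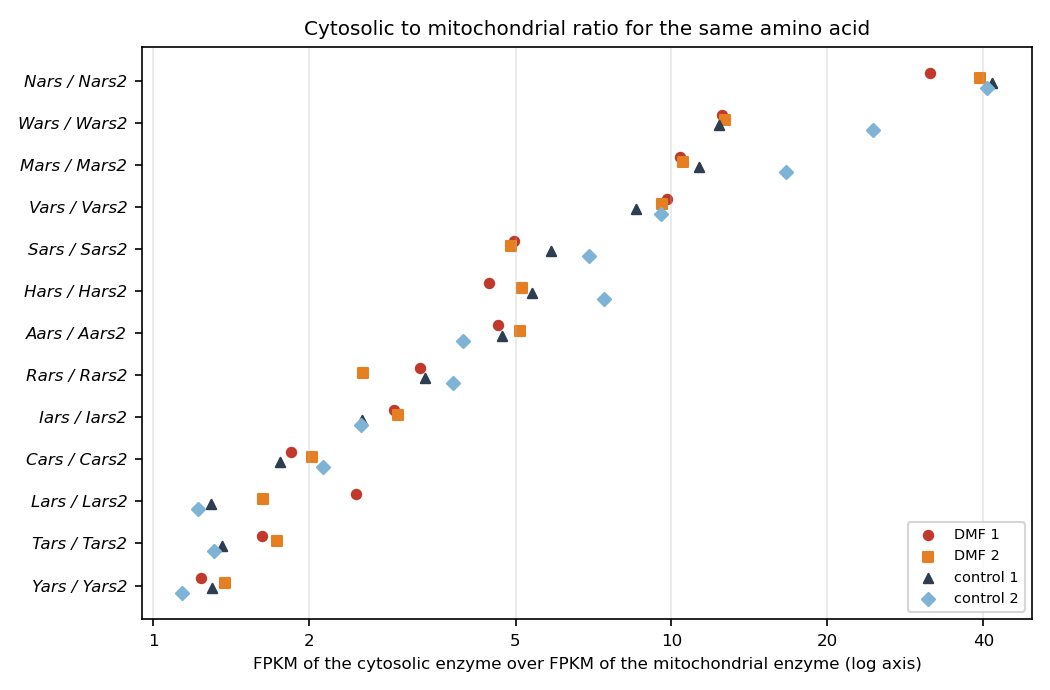
FPKM of the cytosolic enzyme divided by that of the mitochondrial enzyme for the same amino acid, on a log axis, in each of the 4 libraries, for the 13 pairs without a shared gene. Ratios run from 1.14 to 41.5, and the DMF points of Iars over Iars2 (2.91 and 2.97) lie above both controls (2.53 and 2.52).

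The spread between the controls bears on each of these values. Control replicate 2 was above control replicate 1 in 29 of the 38 genes, and below it by most in Iars, Iars2, Eprs, Wars2 and Mars2. The share over all tested genes was not worked out, so the count is not a trait of this family. The deposited scaling also raises control replicate 2 (factor 0.876, against 1.03 in replicate 1), and its part in the count was not tested. Over the 38 genes the difference between the controls was lower in longer genes on a log scale of length (Pearson r = -0.52, Spearman rho = -0.49), where genes of 1 library share its depth and composition. The difference between the DMF mean and control replicate 1 showed little such relation (r = -0.07, rho = -0.05). At 5272 exon bases Iars is of middle length, and it had the lowest value in control replicate 2 relative to replicate 1 of the 38.

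**Figure D4:**
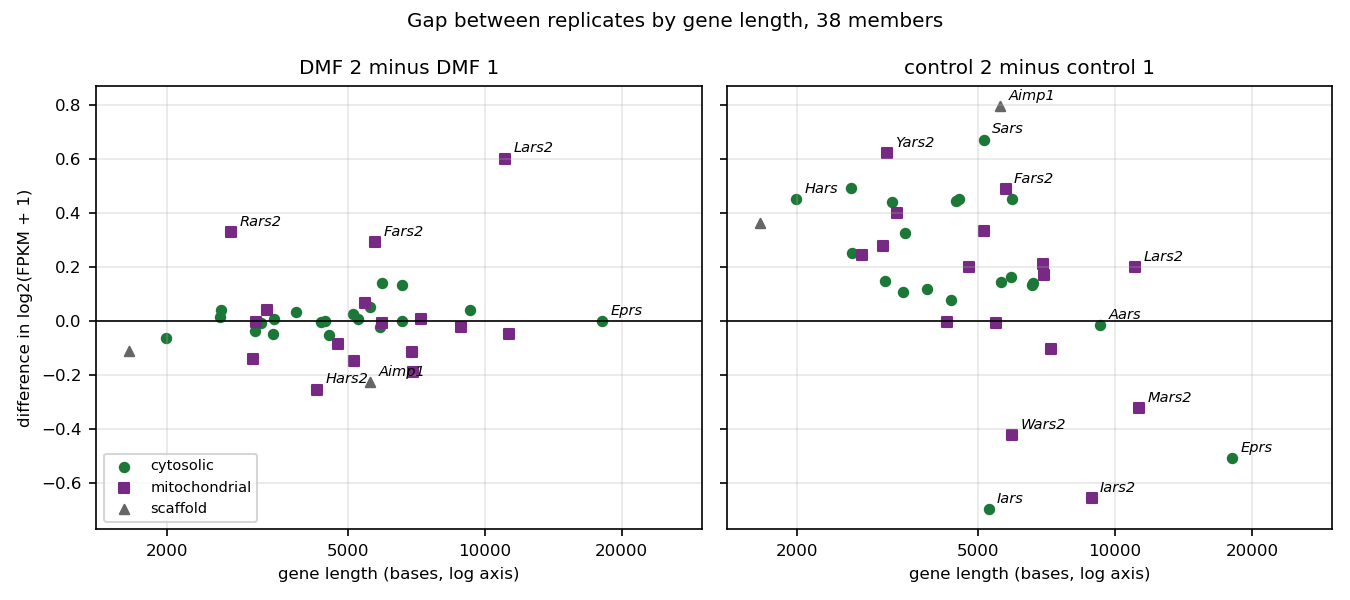
Difference in log2(FPKM + 1) between replicates of each group (DMF on the left, control on the right) against gene length on a log axis, 1 point per gene. The controls run from -0.69 (Iars) to 0.80 (Aimp1), while the DMF libraries differ by 0.60 in Lars2 and by 0.33 or less in the other genes.

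With 1 control left out, the lone control is assumed to vary like the DMF libraries. Without control replicate 2, limma called 2 of the 38, Lars and Nars, both higher in the DMF libraries (limma adjusted p = 0.0354 and 0.0398), against 8.28% of all tested genes. Without control replicate 1 it called 19 of the 38, against 61.0% of all tested genes. With DMF, 9 of these 19 were higher and 10 were lower. Fitting the replicate number as a block called 0 of the 38, against 4.54% of all tested genes.

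Genes that work with the synthetases were described from lists drawn up around the family. The 35 ATF4 pathway genes, which are targets of ATF4 or ATF4 itself, had 18 above both controls and 2 below, against 26.4% and 26.8% of all tested genes, although 6 of the 35 were too low to be tested. They had a median difference of 0.20 (0.43 with the length trend removed). Slc1a4, a neutral amino acid transporter, was at 8.96 and 8.13 FPKM in the DMF libraries, against 3.91 and 4.02 FPKM in the controls, and Slc7a5, a leucine transporter, at 62.9 and 64.7 FPKM in the DMF libraries, against 35.6 and 27.2 FPKM in the controls. Chac1, an enzyme that degrades glutathione, was at 4.27 and 4.58 FPKM in the DMF libraries, against 1.48 and 2.06 FPKM in the controls. Psat1, a serine synthesis enzyme, was at 68.5 and 67.98 FPKM in the DMF libraries, against 36.6 and 42.9 FPKM in the controls, and none of the list passed the test (lowest limma adjusted p = 0.258). Atf4 itself, chosen after its values were seen, overlapped at 205 and 198 FPKM in the DMF libraries, against 166 and 279 FPKM in the controls.

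The 16 genes that sense amino acids or act on eIF2 had 5 above both controls and 3 below (median -0.02). For this list and those that follow, the shares over all tested genes were 26.4% above and 26.8% below. Eif2ak4, which encodes GCN2, was at 5.305 and 4.62 FPKM in the DMF libraries, against 3.43 and 1.86 FPKM in the controls, and Impact, an inhibitor of GCN2 activation, at 14.9 and 14.9 FPKM in the DMF libraries, against 9.67 and 7.53 FPKM in the controls. Both were higher in both DMF libraries. Eif2b2 and Eif2b4, subunits of the exchange factor of eIF2, ran the other way, at 30.99 and 32.4 FPKM and 21.1 and 19.99 FPKM in the DMF libraries, against 35.8 and 65.6 FPKM and 23.5 and 37.4 FPKM in the controls. Control replicate 2 was the highest library for both.

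The 16 genes listed as cytosolic tRNA partners had 4 above both controls and 4 below (median -0.06, and 0.18 without control replicate 2). With the length trend removed, 7 lay above and 2 below (median 0.06), against 27.2% and 27.1% of all tested genes. Among those below both controls, Aarsd1 was too low to be tested and Elac2 differed by only -0.03. The list also holds Rnmt and Ptrh2, which overlapped and are not strictly cytosolic tRNA partners. Xpot, which exports tRNA from the nucleus, was at 31.8 and 33.05 FPKM in the DMF libraries, against 24.9 and 16.9 FPKM in the controls. Tarsl2, a second cytosolic threonine enzyme, was at 2.24 and 2.03 FPKM in the DMF libraries, against 1.23 and 0.852 FPKM in the controls. Trnt1, which adds the CCA end to tRNA, was at 16.9 and 16.6 FPKM in the DMF libraries, against 14.3 and 13.6 FPKM in the controls. These and Sepsecs, which makes selenocysteine on its tRNA, at 3.58 and 3.98 FPKM in the DMF libraries, against 3.33 and 2.26 FPKM in the controls, were the 4 genes above both controls.

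Of the 10 cytosolic elongation and termination factors, 2 lay above both controls and 5 below (median -0.41, and -0.02 without control replicate 2). Eef1d, a subunit of the factor that reloads the tRNA carrier of the ribosome, was at 27.1 and 26.8 FPKM in the DMF libraries, against 28.7 and 57.4 FPKM in the controls, and Eef2k, the kinase that halts elongation, at 0.811 and 0.723 FPKM in the DMF libraries, against 1.73 and 1.55 FPKM in the controls. Gspt1, a release factor, was at 49.1 and 48.1 FPKM in the DMF libraries, against 43.4 and 36.4 FPKM in the controls, and Eif5a2 at 3.36 and 2.802 FPKM in the DMF libraries, against 1.998 and 1.14 FPKM in the controls. The last 2 were the ones above.

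Of the 24 mitochondrial translation genes, 3 lay above and 10 below (median -0.16, and -0.03 without control replicate 2). Tufm, the mitochondrial elongation factor Tu, was at 61.01 and 62.6 FPKM in the DMF libraries, against 72.95 and 106 FPKM in the controls. Mtif3, an initiation factor, was at 2.53 and 1.98 FPKM in the DMF libraries, against 3.16 and 3.88 FPKM in the controls, and Mrpl58, a peptide release factor of the mitochondrial ribosome, at 10.1 and 10.2 FPKM in the DMF libraries, against 11.5 and 21.8 FPKM in the controls. All 3 lay below both controls. Lrpprc, which stabilises mitochondrial mRNA, was above both, at 12.9 and 12.7 FPKM in the DMF libraries, against 10.9 and 9.34 FPKM in the controls. Its difference of 0.31 was 0.08 with the length trend removed, where the groups overlapped.

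The 16 listed regulators had 5 above and 4 below (median -0.03). Ppargc1b, a coactivator of mitochondrial genes, was at 1.602 and 1.799 FPKM in the DMF libraries, against 0.58 and 0.414 FPKM in the controls, and Gabpa, a factor that drives many of them, at 13.2 and 12.4 FPKM in the DMF libraries, against 11.2 and 8.98 FPKM in the controls. Irf1, a transcription factor of the interferon response, was lower in both DMF libraries, at 14.9 and 14.8 FPKM in the DMF libraries, against 18.02 and 23.6 FPKM in the controls. No gene of these 5 lists passed the test over all genes.

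**Figure D5:**
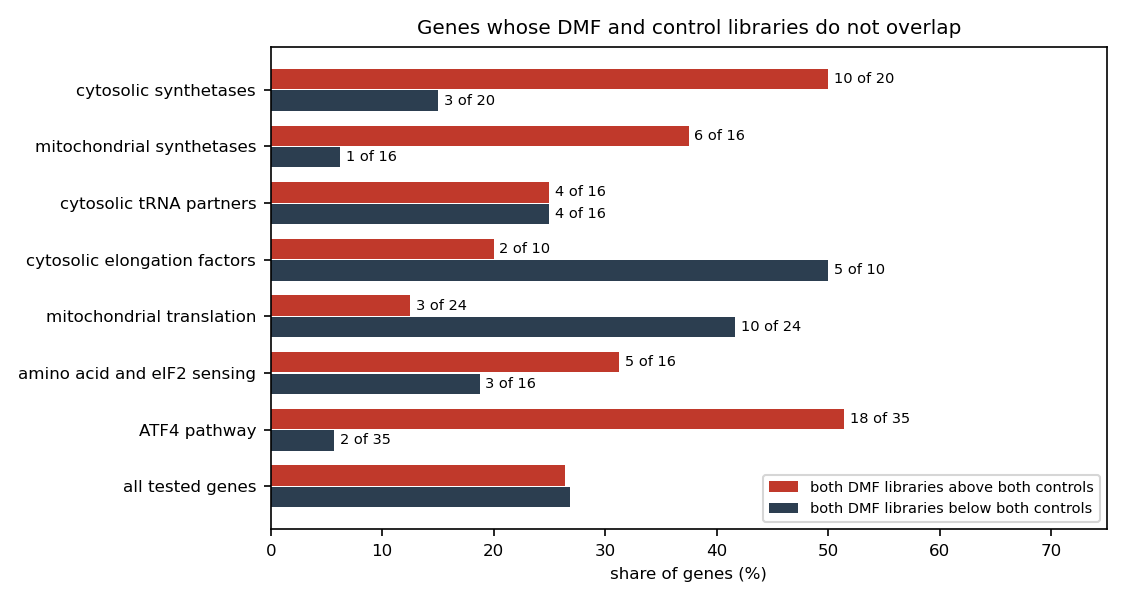
Share of each list's genes, in percent, with both DMF libraries above both controls (red) or below both (dark), with the counts beside the bars and all 12166 tested genes in the last row. The cytosolic synthetases (10 of 20 above) and the ATF4 pathway (18 of 35) have more genes above than below, while the elongation factors (5 of 10 below) and mitochondrial translation (10 of 24 below) have more below.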

How the data were processed

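Total RNA of 2 DMF and 2 control libraries went on an Illumina HiSeq2000, per the labels' protocols. The authors deposited 1 table of FPKM values that also lists the name, position and length of each gene. edgeR and the build mm8 are named, with no role stated, in the submitters' processing notes. The sources used here give no aligner or counter. Coordinates of 35 of the 38 genes equal those of GENCODE M21, so they are given as GRCm38. Hars, Lars and Nars differ there.

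FPKM times length gave whole multiples of 1 step for 100% of values, within 0.01, which are reads. The deposited scaling is to 18302380 and 18672223 reads in the DMF libraries and 17725674 and 13929627 in the controls. The DMF libraries differed beyond counting error (chi-square per degree of freedom 3.71, and 164 between the controls), so they count as 2 libraries.

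limma 3.58.1 (R 4.3.3, eBayes with a trend) was run on log2(FPKM + 1) over 12166 genes, those whose mean FPKM was 1 or higher, two-sided, DMF minus control, with Benjamini-Hochberg adjustment. limma's voom on the recovered reads gave 0 calls (1168 by unadjusted p under 0.05). All 38 genes passed the filter. The family and all lists were chosen with earlier results of these data known, so lists have no test, only counts and medians over every gene in the table. Up to 4 genes of each list, those with the smallest p, are named. Some items that these rules select are not reported here. Alternatives were pseudocounts of 0.1 and 0.5, no filter, a mean FPKM minimum of 5, scaling by a trimmed mean of log ratios, quantile normalization, removal of a loess trend in gene length (span 0.3), eBayes without a trend, voom, a replicate block and each library left out. None of these scaled by the recovered reads alone, and voom used the deposited sizes. Strand use in counting is not given, so reads of overlapping genes cannot be told apart. Shared exon bases come from GENCODE M21.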

Additional observations from a re-analysis of the deposited data

How the results depend on the processing

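Of the 38 genes, 21 kept the sign of their difference in all 14 alternatives, 16 of them positive and 5 (Aimp1, Fars2, Hars, Qars and Tars2) negative. The same share over all tested genes was not worked out, so this count has no background. Changing the filter on low levels, dropping the eBayes trend or adding the replicate block cannot change a sign. Under quantile normalization the sign turned for Farsa at 0.00688, Kars at 0.0339, Rars at 0.075, Sars at 0.0397 and Wars at 0.15. With the gene length trend removed it turned for Aimp2 at 0.22, Eprs at -0.0129, Pars2 at 0.035, Rars at 0.00256, Vars at -0.00653 and Wars at 0.0618, and with a trimmed mean of log ratios for Vars2 at 0.00488. When each library was left out in turn, 14 genes changed sign, with Aimp2 between -0.30 and 0.0601, Ears2 between -0.26 and 0.0769, Farsa between -0.42 and 0.0352, Farsb between -0.24 and 0.26, Hars2 between -0.0398 and 0.21, Lars2 between -0.57 and 0.0332, Pars2 between -0.24 and 0.0358, Rars between -0.34 and 0.10, Sars between -0.59 and 0.0782, Sars2 between -0.10 and 0.30, Vars2 between -0.0537 and 0.0147, Wars between -0.20 and 0.13, Yars between -0.0464 and 0.41 and Yars2 between -0.23 and 0.39. The causes were not tested. The count of genes called over all genes was 3 with the length trend removed and between 6 and 7420 with a library left out. It was 552 with the replicate number as a block, and 0 in the other alternatives. The deviations of same-numbered libraries from their group means had a correlation of -0.02 over genes, and the labels tie no animal or day to a number.

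Under quantile normalization the cytosolic median was 0.30, with 16 enzymes above both controls and 1 below, and the distance from the mitochondrial median was 0.19. Without each library in turn, between 10 and 17 cytosolic enzymes lay above the controls left and between 3 and 8 below. For the mitochondrial enzymes these ranges were 6 to 10 and 1 to 7, with medians from 0.014 to 0.098. Leaving a library out makes it easier for any gene not to overlap. Over all tested genes the shares ran from 32.2% to 43.6% above and from 32.8% to 49.0% below. Mitochondrial enzymes below both controls numbered 2 with a trimmed mean of log ratios and 3 with the length trend removed, against 26.6% and 27.1% of all tested genes. The fewest reads of a member in a library were 124, for Wars2 in control replicate 2, so counting error matters most for the low mitochondrial enzymes.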
